A study of Mus musculus with 20 samples.

Results

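The genes described here are the mouse genes for mitochondrial ribosomal proteins, taken as every gene of the count table whose symbol begins with Mrpl or Mrps and a number. Of 83 such symbols, 5 pseudogenes were left out (Mrps36-ps1, Mrps36-ps2, Mrps36-ps3, Mrpl23-ps1 and Mrpl48-ps), which gave 78 protein-coding genes of the 53028 genes in the table. By the known composition of the mitochondrial ribosome, 51 of them encode proteins of the large subunit and 26 proteins of the small subunit. Mrps36 carries the name of the family but is now placed in the α-ketoglutarate dehydrogenase complex. Of the 77 subunit proteins, 47 have a homologue in the bacterial ribosome and 30 are known only from mitochondria.

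The samples were livers of male, chow-fed C57BL/6J mice given locked nucleic acids (LNA, chemically stabilised antisense oligonucleotides) at 3 mg/kg into the peritoneum, in 3 injections every other day, with tissue taken 2 days after the last. For the polysome preparation, mice of both groups also received cycloheximide, which arrests ribosomes on mRNA, through the tail vein minutes before they were killed. In the control group the LNA targeted GFP, a sequence the mouse does not have, and in the other group it targeted SNORA73, a small nucleolar RNA of ribosomal RNA processing. The age is 8 weeks in the series' design and 10 weeks in the methods for liver polysomes, and the sample labels write Snora37 where the design writes SNORA73. From each of 10 mice, 5 per group (GFP LNA mice 1, 2, 3, 8 and 9, SNORA73 LNA mice 4, 6, 10, 11 and 12), 1 library was made of total liver RNA and 1 of RNA from the polysome fractions of a sucrose gradient, after polyA selection.

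Mitochondria keep their own ribosome, which translates the few membrane proteins of the respiratory chain that mitochondrial DNA encodes. Its RNA comes from mitochondrial DNA, but every one of its proteins is encoded in the nucleus, translated by the cytosolic ribosome and imported. The hepatocyte is rich in mitochondria, and messenger RNA that sits in heavy polysomes carries several ribosomes at once, so the polysome fraction reports on which mRNAs are being translated.

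The 20 libraries held between 14852951 and 42023390 estimated counts, and all 78 genes passed the filter on low counts in every fit. The lowest count of any of the 78 in any library was 54, for Mrpl23, and 128 for the rest. Hepatocyte markers stood at a mean of 12.5 to 13.4 log2 CPM (counts scaled to library size), while lymphocyte and cholangiocyte markers were at most at 1.34 and 2.74. The mean of 5 markers of sinusoidal endothelium was 3.89 to 4.15 log2 CPM in polysome RNA of SNORA73 LNA mice against 3.47 to 3.85 in GFP LNA mice, and 4.10 to 4.35 against 3.70 to 4.19 in total RNA. Of these markers Stab2 passed the test in total RNA (log2 fold change 1.06, FDR 0.0497) and the others did not, and the part of such cells in the results on the LNA was not tested. Markers of Kupffer cells (4.04 to 5.06 in total RNA) and stellate cells (3.71 to 4.37) overlapped between the groups, as did erythroid markers (5.10 to 6.65). In polysome RNA the erythroid mean was 5.71 to 7.20 in SNORA73 LNA mice and 6.67 to 7.34 in GFP LNA mice. All 4 tested erythroid markers were below 0 there (median log2 fold change -0.50), 0 passed, and their part was not tested. Malat1, a nuclear RNA, was at 89.2 to 145 CPM in the polysome RNA of GFP LNA mice and at 216 to 1403 CPM in that of SNORA73 LNA mice, with the highest value in mouse 11. It did not pass the test (log2 fold change 2.29, FDR 0.0857), and Neat1, the other nuclear RNA listed, overlapped between the groups, at 20.8 to 43.0 and 18.5 to 38.5 CPM (log2 fold change -0.12, FDR 0.859). The targeted RNA had at most 2 (Snora73a) and 4 (Snora73b) counts in a library, so the table does not check the knockdown.

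The mRNAs of the mitochondrial ribosome were enriched on polysomes in the livers of control mice. Against total RNA of the same mice, 68 of the 78 were higher in polysome RNA at a false discovery rate (FDR) under 0.05 in edgeR's quasi-likelihood test, where 21.8% of all 13795 genes tested were higher. Only Mrpl50 was lower, where 21% of all genes were, and 9 did not pass the test. The median log2 fold change was 0.84 (quartiles 0.53 and 1.03) over the 78 genes and 0.03 over all genes, and 76 of the 78 were above 0. A log2 fold change of at least 1 was reached by 23 of them (29.5%), against 4.75% of all genes. The mean level of the 78 genes was 4.81 ± 0.05 log2 CPM (SD, n = 5) in total RNA and 5.57 ± 0.03 (SD, n = 5) in polysome RNA. These ratios are relative within each library, since the amount of RNA per liver was not measured, and in bulk tissue fewer cells of a type and less RNA per cell cannot be told apart. Total RNA was purified on columns with DNase digestion, and polysome RNA by precipitation, heparinase treatment and a further cleanup. Fraction and extraction thus differ together in each polysome against total comparison, and their parts cannot be told apart.

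**Figure D1:**
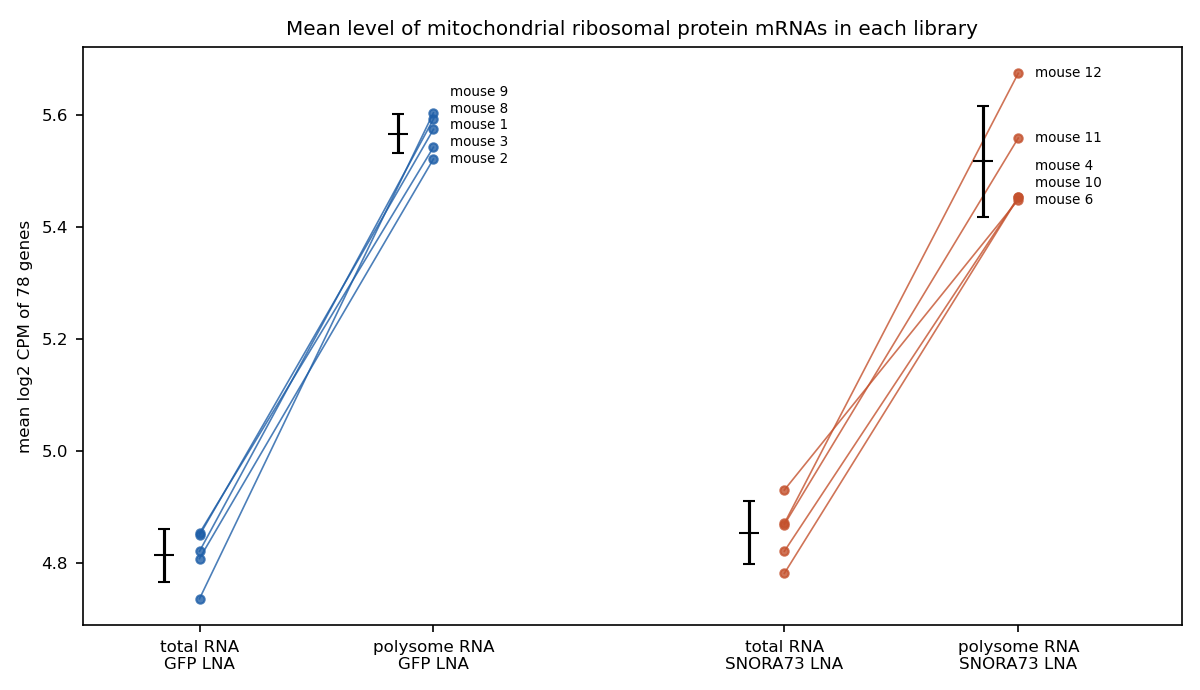
Mean log2 CPM of the 78 genes in each library (points, total and polysome RNA of a mouse joined by a line), with the mean and SD of 5 mice in each group. All polysome libraries lie between 5.45 and 5.67, above all total RNA libraries, which lie between 4.74 and 4.93.

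The enrichment was present in each animal. Over the 78 genes the mean of the log2 difference between polysome and total RNA of a mouse was 0.72, 0.71, 0.69, 0.77 and 0.87 in GFP LNA mice 1, 2, 3, 8 and 9. It was 0.67, 0.69, 0.80, 0.63 and 0.52 in SNORA73 LNA mice 10, 11, 12, 4 and 6. The ranges of both groups overlapped, with the lowest value in mouse 6. Between 71 and 76 of the genes were above 0 in any given mouse, and 64 were above 0 in all 10 mice. As a share of all counts, the family took 0.252 to 0.271% of total RNA and 0.469 to 0.490% of polysome RNA in GFP LNA mice.

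Mrpl52 (ENSMUSG00000010406, chr14:54426909-54429750), a large subunit protein known only from mitochondria, had the largest enrichment in GFP LNA mice. Its level was 32.6, 28.9, 31.2, 28.5 and 25.4 CPM in total RNA of mice 1, 2, 3, 8 and 9, and 85.5, 82.1, 79.1, 76.9 and 102 CPM in their polysome RNA. Every polysome library lay far above every total RNA library, and the log2 fold change was 1.54 ± 0.12 (SE), FDR 1.51e-08. Mrpl54 (ENSMUSG00000034932, chr10:81264722-81266926), also a mitochondria-specific large subunit protein, stood at 19.8, 15.5, 21.3, 17.5 and 25.4 CPM in total RNA and at 51.0, 42.0, 55.5, 49.7 and 84.4 CPM in polysome RNA. The groups did not overlap, mouse 9 was the highest in both, and the log2 fold change was 1.51 ± 0.17, FDR 9.44e-07. Mrps12 (ENSMUSG00000045948, chr7:28739641-28741821), the homologue of the bacterial protein S12 at the decoding centre, had 39.0, 33.2, 39.7, 38.7 and 36.8 CPM in total RNA and 99.0, 79.9, 90.9, 94.2 and 110 CPM in polysome RNA. Its log2 fold change was 1.34 ± 0.12, FDR 6.1e-08, again with no overlap.

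Mrpl50 (ENSMUSG00000044018, chr4:49512597-49521083), another mitochondria-specific protein of the large subunit, went the other way. Total RNA of GFP LNA mice held 53.8, 59.4, 54.4, 69.8 and 51.1 CPM and polysome RNA 44.4, 39.6, 43.5, 43.1 and 41.6 CPM. Every polysome value was below every total value, with a log2 fold change of -0.44 ± 0.12, FDR 0.0057. In SNORA73 LNA mice 10, 11, 12, 4 and 6 the values were 69.9, 47.9, 59.7, 51.0 and 57.2 CPM in total and 59.4, 42.8, 52.0, 45.4 and 61.7 CPM in polysome RNA. These overlapped (log2 fold change -0.13 ± 0.12, FDR 0.436), and mouse 6 was the single animal of the 10 in which the gene was higher on polysomes. Mrps2 (ENSMUSG00000035772), homologue of bacterial S2, was at 34.1, 33.4, 37.1, 42.0 and 34.9 CPM in total and 32.8, 31.8, 37.1, 34.0 and 33.8 CPM in polysome RNA of GFP LNA mice. Its groups overlapped almost fully, with a log2 fold change of -0.10 ± 0.11, FDR 0.503. Within mice, Mrps2 was higher on polysomes in 1 of the 10, GFP LNA mouse 3, by a log2 difference of 0.002. With both libraries of a mouse paired in the fit, it did not pass in either group (FDR 0.291 and 0.074).

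The sequences across the transcription start are shown for these genes because mRNAs of cytosolic ribosomal proteins, whose translation is set by mTOR, are known for a 5′ terminal oligopyrimidine (TOP) start, a C followed by a run of pyrimidines (C or T). RefSeq promoter windows on GRCm38.p6, which run from 250 bases before the annotated start through the first 50 transcribed bases, were found for 69 of the 78 genes. The capitals mark the first 5 transcribed bases. The first 3 lines are mitochondrial ribosomal protein genes with high or low enrichment, on chr14:54426894-54426923 (plus strand), chr7:28741807-28741836 (minus) and chr4:49521069-49521098 (minus), and the last 2 are cytosolic ribosomal protein genes, on chr9:120571502-120571531 (plus) and chr17:27635230-27635259 (minus).
Mrpl52: tgccggggccacgccCACTTccggttccct
Mrps12: tcactaaggaggaacCCCGGaaggggctgg
Mrpl50: tggctgagtcgggcaCGTCTggcgctcttg
Rpl14: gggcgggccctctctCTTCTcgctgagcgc
Rps10: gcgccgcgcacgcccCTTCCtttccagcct
A start with C followed by 4 pyrimidines was read in 0 of the 69 mitochondrial genes, in 15 of 64 cytosolic ribosomal protein genes (23.4%), in 2.91% of 10161 tested genes with a window and in 3.01% of all 27025 genes with a window. The annotated base is a limit here, because TOP starts often lie a few bases from it.

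**Figure D2:**
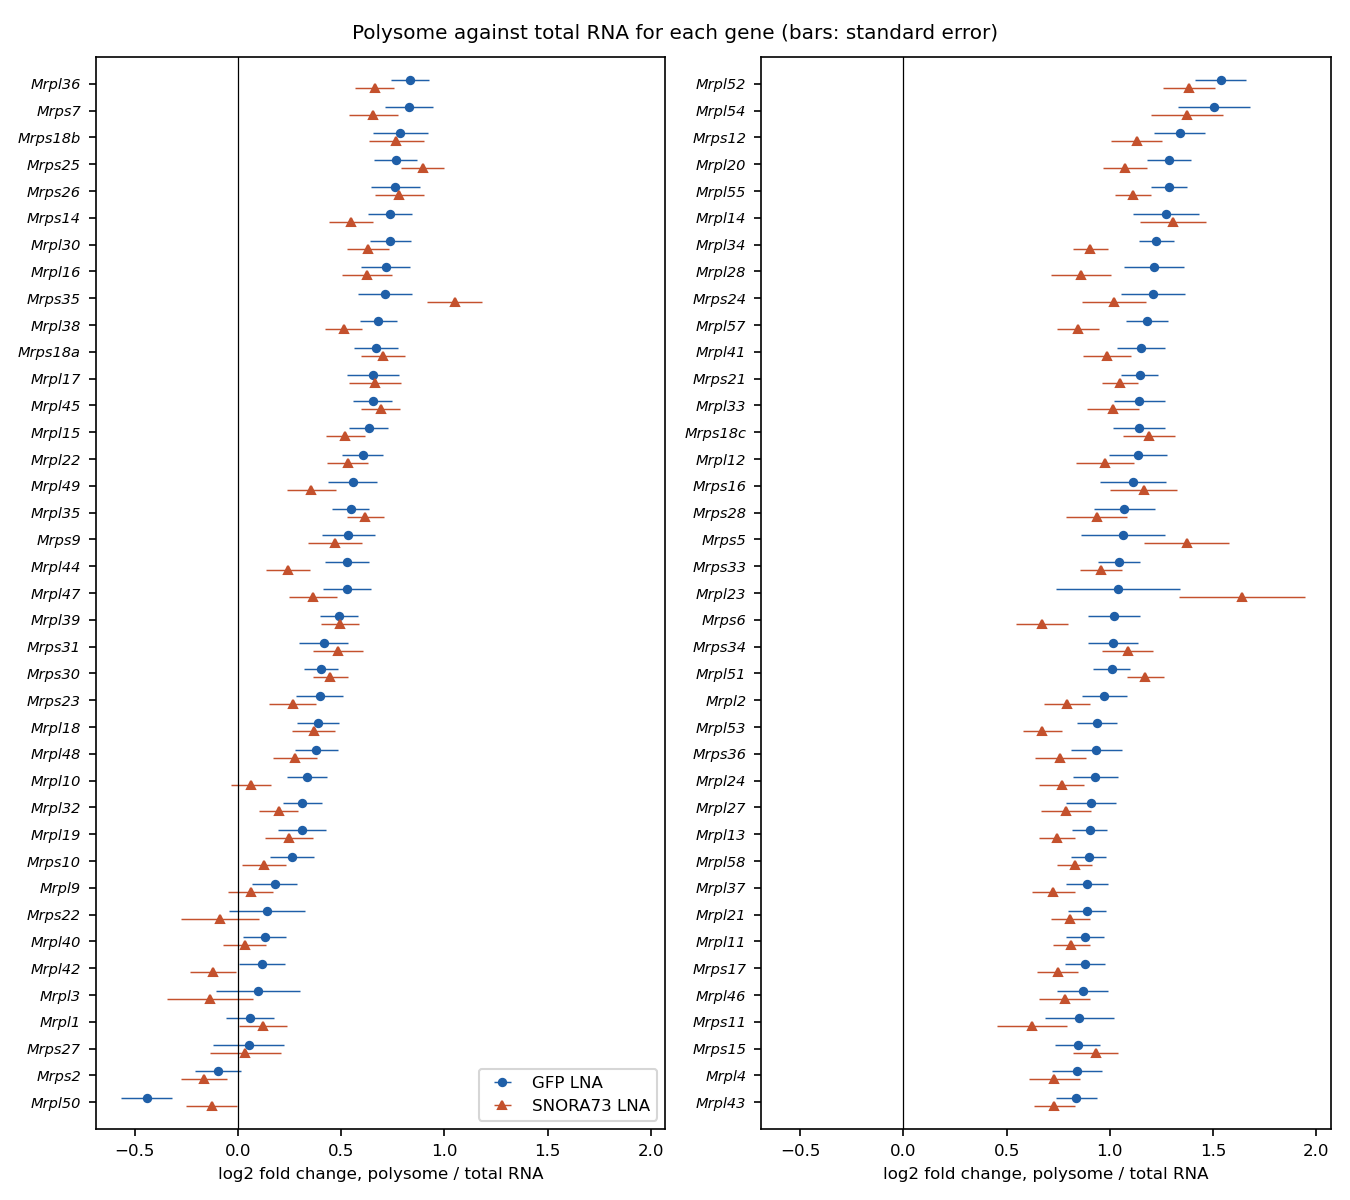
Log2 fold change of polysome against total RNA for each of the 78 genes, sorted by the value in GFP LNA mice, in GFP LNA and SNORA73 LNA mice (points). Bars are standard errors derived from the edgeR test. Most genes lie above 0.5 in both groups, and a short tail that includes Mrpl50, Mrps2, Mrps27, Mrpl1 and Mrpl3 lies near or under 0.

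The enrichment ran through both subunits. In GFP LNA mice 45 of the 51 large subunit genes rose on polysomes and 1 fell (median 0.83), and 22 of the 26 small subunit genes rose and 0 fell (median 0.84). Among the large subunit genes, Mrpl20 (chr4:155802878-155808831), homologue of the bacterial assembly protein L20, had a log2 fold change of 1.29 ± 0.11 (FDR 1.69e-08). Mrpl34 and Mrpl55, homologues of L34 and L31, had the smallest FDR of the family, 4.14e-09 for both, at 1.23 ± 0.08 and 1.29 ± 0.09. Mrpl12, the homologue of the stalk protein L7/L12 that also binds the mitochondrial RNA polymerase, had 1.14 ± 0.14 (FDR 2.55e-06), and its stalk partners Mrpl10 and Mrpl11 had 0.34 ± 0.10 (FDR 0.00776) and 0.88 ± 0.09 (FDR 2.92e-07). Mrpl2, of the peptidyl transferase region, was at 0.97 ± 0.11, and Mrpl27 at 0.91 ± 0.12. Mrpl58, a peptidyl-tRNA hydrolase built into the large subunit, was at 0.90 ± 0.09, and Mrpl45, which lies at the exit tunnel beside the inner membrane, at 0.65 ± 0.10.

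Of the small subunit genes, Mrps21 rose by 1.14 ± 0.09 (FDR 9.92e-09), Mrps34 by 1.01 ± 0.12 and Mrps7, homologue of S7, by 0.83 ± 0.12. The 3 paralogues of bacterial S18 all rose, Mrps18c by 1.14 ± 0.13, Mrps18b by 0.79 ± 0.13 and Mrps18a, which sits in the large subunit, by 0.67 ± 0.11. Mrps36, which is not a ribosomal protein, rose by 0.94 ± 0.12. The genes that did not pass were Mrps2, Mrps27, Mrpl1, Mrpl3, Mrpl42, Mrpl40, Mrps22, Mrpl9 and Mrps10, with log2 fold changes from -0.10 to 0.26, and the last of these missed the threshold narrowly (FDR 0.0524). By descent, 42 of 47 genes with a bacterial homologue were higher (median 0.84), and 25 of 30 mitochondria-only genes (median 0.74), against 21.8% of all genes.

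**Figure D3:**
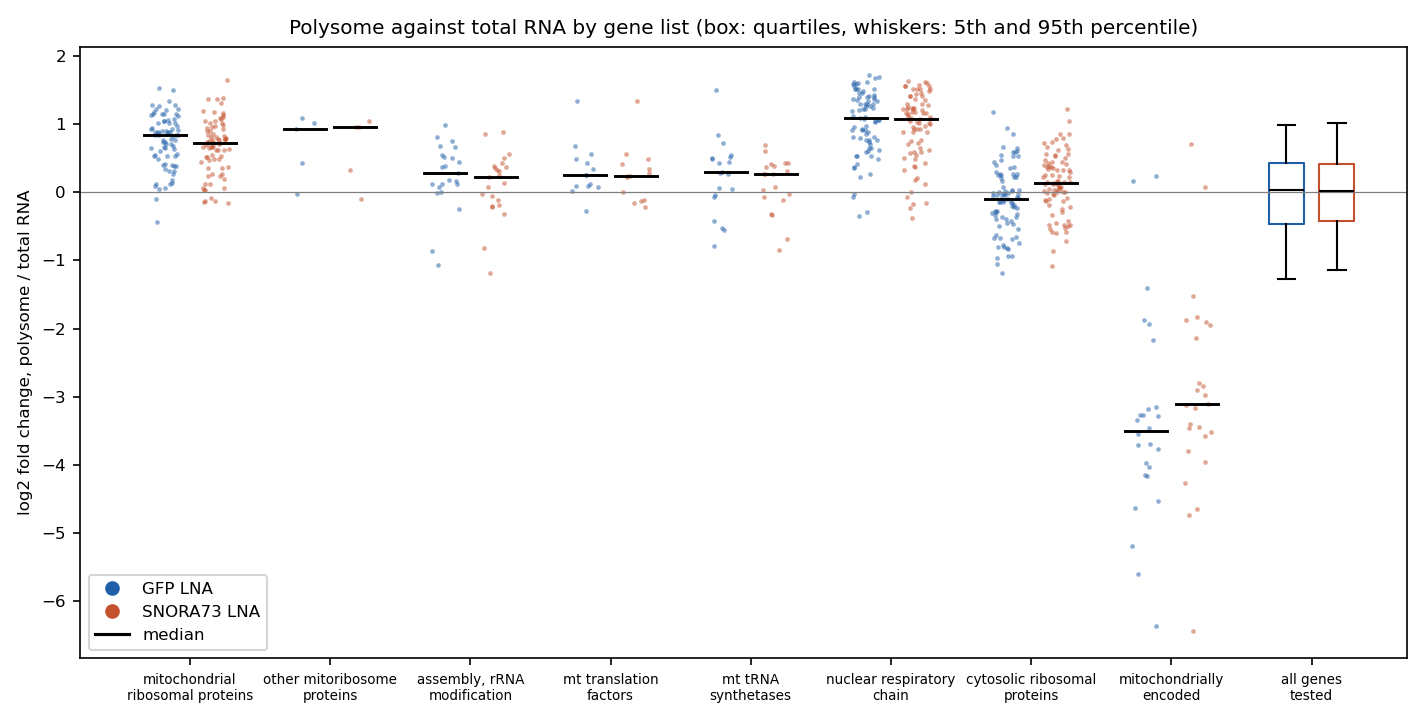
Log2 fold change of polysome against total RNA by gene list in GFP LNA and SNORA73 LNA mice (each point a gene, black line at the median, with all genes tested as boxes of the quartiles). Mitochondrial ribosomal proteins (medians 0.84 and 0.73) lie near the nuclear respiratory chain genes (1.08 and 1.08), above cytosolic ribosomal proteins (-0.10 and 0.14) and far above mitochondrially encoded genes (-3.50 and -3.11).

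Other genes of mitochondrial gene expression differed in how far they shared this. Of 5 mitoribosome proteins with other symbols (Dap3, Ptcd3, Chchd1, Aurkaip1 and Gadd45gip1), 4 rose on polysomes of GFP LNA mice (median 0.93). Of 23 genes for assembly and modification of the mitochondrial ribosome, 11 rose and 2 fell (median 0.29). Of 14 tested translation factors and activators, 5 rose and 1 fell (median 0.25). Mitochondrial tRNA synthetases and amidotransferase had 7 higher and 4 lower of 20 (median 0.29), and the transcription machinery of mitochondria 1 higher and 4 lower of 8 (median -0.22). Nuclear genes of the respiratory chain, whose products join those made by the mitochondrial ribosome, were higher in 72 and lower in 2 of 79 tested (median 1.08).

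Of the cytosolic ribosomal protein genes, 16 were higher and 27 lower of 85 tested in GFP LNA mice (median -0.10). The transcripts of mitochondrial DNA itself were depleted, 24 of the 26 tested being lower (median -3.50), and their share of counts was 11.2 to 15.4% in total and 2.06 to 3.05% in polysome RNA. When these genes were left out of the libraries, the counts of mitochondrial ribosomal protein genes called stayed within 1.5 times those above. These lists are set side by side as counts and medians, with no test between them.

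Genes of the family are short. Their median span in the genome was 7690.5 bp, against 21887 bp for 12909 tested genes with a position. Across genes, the span and the log2 fold change on polysomes went in opposite directions, with a Spearman correlation of -0.42 over the 78 genes and -0.33 over all genes in GFP LNA mice (across genes, which are not independent replicates). Of the 39 members with the shortest span 36 were higher (median 0.88), and of the 39 with a longer span 32 were (median 0.71). Among 2241 protein-coding genes with a span no longer than the family's median, 43.6% were higher (median 0.40), compared with 22.8% of all 12036 protein-coding genes. Transcript lengths were not used here, so the part of mRNA length in the enrichment was not tested.

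The 69 windows were searched on both strands and over their whole length for 3 motifs known from nuclear genes of mitochondrial function. They were CCGGAAG, bound by ETS factors such as GABP (NRF2), GCATGCGC, an arm of the palindromic NRF1 site, and AAGATGGC, the core of the YY1 site. Shown are the 90 bases before the start of 4 members, with the motif letters in capitals, at chr14:54426819-54426908 (plus strand), chr8:71464836-71464925 (plus), chr13:14613038-14613127 (minus) and chr13:73330919-73331008 (plus). They were chosen to show an ETS motif in both orientations in 2 strongly enriched genes, a cluster of NRF1 arms, and a YY1 motif.
Mrpl52: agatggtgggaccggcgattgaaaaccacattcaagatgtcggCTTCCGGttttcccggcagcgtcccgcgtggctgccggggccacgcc
Mrpl34: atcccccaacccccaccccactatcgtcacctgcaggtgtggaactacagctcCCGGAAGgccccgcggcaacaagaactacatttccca
Mrpl32: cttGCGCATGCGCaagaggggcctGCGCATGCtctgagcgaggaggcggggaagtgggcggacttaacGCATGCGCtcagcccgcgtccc
Mrpl36: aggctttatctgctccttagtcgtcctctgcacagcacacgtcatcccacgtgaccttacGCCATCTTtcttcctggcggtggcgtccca
Over the whole windows, which reach beyond the stretches shown, the ETS letters were in 26 of 69 (37.7%), against 19.7% of the tested genes with a window and 9.93% of all genes. The NRF1 letters were in 8 (11.6%, against 5.67% and 3.05%) and the YY1 letters in 12 (17.4%, against 5.18% and 3.19%). At least 1 of the motifs was in 38 windows (55.1%), against 27.6% of tested and 14.9% of all genes, and in 54.7% of the cytosolic ribosomal protein genes. Set against polysome enrichment, the median log2 fold change in GFP LNA mice was 0.89 with the ETS letters and 0.76 without, 0.55 with the NRF1 letters and 0.85 without, and 0.75 with the YY1 letters and 0.84 without. With any of them it was 0.83 and without 0.84, and none of these differences was tested.

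Mrpl46 (large subunit) and Mrps11 (small subunit, homologue of S11) share a promoter region. They run away from each other with 41 bases between their starts, at chr7:78783090-78783130, shown on the plus strand because it is the single such pair among the members.
Mrpl46-Mrps11: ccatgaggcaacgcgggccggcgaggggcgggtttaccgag
Their enrichment on polysomes was 0.87 and 0.85 in GFP LNA mice and 0.78 and 0.62 in SNORA73 LNA mice.

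In SNORA73 LNA mice the family was enriched on polysomes as well, with 63 of 78 genes higher (19.7% of all genes were) and 0 lower (18.2% of all genes). The median log2 fold change was 0.73 (0.02 over all genes), 73 genes were above 0, and 16 reached 1 (20.5%, against 5.28% of all genes). All 63 were among the 68 of the control group, and the remaining 5 passed only there, which is not by itself a difference between groups. Of these 5, Mrpl19, Mrpl44 and Mrps23 also passed in SNORA73 LNA mice when both libraries of a mouse were paired in the fit. Mrpl52 stood at 28.4, 39.5, 28.1, 33.4 and 31.9 CPM in total RNA and 74.6, 103, 90.9, 82.1 and 70.3 CPM in polysome RNA of mice 10, 11, 12, 4 and 6, with a log2 fold change of 1.38 ± 0.12 (FDR 1e-07). Large subunit genes were higher in 41 of 51 (median 0.69) and small subunit genes in 21 of 26 (median 0.77). The highest log2 fold change, 1.64 ± 0.31, belonged to Mrpl23, which had 54 to 331 counts while its pseudogene Mrpl23-ps1 had 245 to 1671, and whether reads were divided between them was not tested. In mouse 10 it went the other way, with a log2 difference of -0.53 against 1.68 to 2.63 in the other 4 mice, and without mice 9 and 10 its log2 fold change was 2.11.

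The question whether the SNORA73 LNA changed polysome enrichment was put to the interaction of RNA fraction and LNA. None of the 78 genes passed (edgeR, all at an FDR of 1.0 after rounding), where 0.00725% of all genes did. At an unadjusted p under 0.05, 0 were higher (2.04% of all genes) and 2 lower (0.87% of all genes). These were Mrpl34 at -0.32 ± 0.12 and Mrpl57, a mitochondria-specific protein of the large subunit, at -0.33 ± 0.14. With 1 mouse left out, the number of such genes ran from 1 (GFP LNA mouse 8 or 9) to 6 (SNORA73 LNA mouse 12). With GFP LNA mouse 9 and SNORA73 LNA mouse 10 left out, the balance turned to 3 higher (Mrpl23 at 1.15, Mrps35 at 0.42 and Mrpl50 at 0.39, where 2.14% of all genes were higher) and 1 lower (Mrpl34 at -0.28, where 0.869% were), with 0 past the FDR. In the 10 mice, the change was below 0 for 58 genes and above 0 for 20, with a median of -0.11 against -0.01 over all genes, and the standard error of a single gene had a median of 0.16. By comparison, 81 of 85 cytosolic ribosomal protein genes were above 0 (median 0.24) and 19 of 79 respiratory chain genes (median -0.08). Of the 260 genes of all these other lists, 0 passed, though 13 with a positive and 1 with a negative change had an unadjusted p under 0.05, and limma-voom and DESeq2 called 0 of the 78 genes.

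With the mouse as a replicate block, since both libraries of a mouse come from 1 liver, 69 of the 78 genes were higher on polysomes in GFP LNA mice (28.9% of all genes) and 66 in SNORA73 LNA mice (26.0% of all genes). For the change between groups, the block again gave none past the FDR (0.00725% of all genes), and raised the genes at an unadjusted p under 0.05 from 2 to 8. Lower were Mrpl10, Mrpl34, Mrpl44, Mrpl53, Mrpl57 and Mrps6 (3.02% of all genes), with log2 changes from -0.35 for Mrps6 to -0.27 for Mrpl53. Higher were Mrpl50 at 0.30 and Mrps35 at 0.31 (5.02% of all genes).

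In total RNA, no gene of the family passed the test between SNORA73 LNA and GFP LNA mice (edgeR, smallest FDR 0.300), where 0.0303% of 13195 genes did. Limma-voom and DESeq2 also called 0 of the 78. That share stands for 4 genes, all higher, and depended on the fit: without GFP LNA mouse 9 it was 49 higher and 10 lower, without mice 9 and 10 it was 76 and 21, and in DESeq2 47 and 21, in each case with 0 of the 78 among them. The median log2 fold change was 0.04 (0.01 over all genes) and 51 of the 78 were above 0, but scaling by library totals in place of TMM turned the median to -0.10 as it moved all genes to -0.14. Single genes ranged from -0.18 (Mrpl9) to 0.33 (Mrpl47), with a median standard error of 0.10. At an unadjusted p under 0.05, 4 were higher (4.96% of all genes) and 0 lower (3.69% of all genes). Leaving out mice 9 and 10, these were 7 higher (7.04% of all genes) and 0 lower (5.05% of all genes). With 1 mouse left out, the number in either direction ran from 2 (GFP LNA mouse 2, 3 or 8) to 5 (SNORA73 LNA mouse 10). The groups did not overlap for 3 genes higher with the SNORA73 LNA (1.1% of all genes) and for 0 lower (0.705% of all genes).

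Those 3 were Mrpl47, Mrps5 and Mrps21. Mrpl47 (chr3:32727497-32736755), homologue of L29 at the exit of the tunnel, had 15.8, 16.1, 15.0, 13.6 and 13.5 CPM in GFP LNA mice 1, 2, 3, 8 and 9 and 18.8, 17.6, 18.1, 19.1 and 19.7 CPM in SNORA73 LNA mice 10, 11, 12, 4 and 6. Means were 14.8 ± 1.21 and 18.7 ± 0.832 CPM (SD, n = 5 each), and the log2 fold change was 0.33 ± 0.08 (FDR 0.300). Mrps5 (chr2:127587426-127603986), homologue of S5, had 41.1, 40.0, 44.5, 44.2 and 46.5 CPM against 49.3, 66.5, 49.9, 55.8 and 48.4 CPM, a log2 fold change of 0.32 ± 0.10 (FDR 0.385). Mouse 11 was the highest of them by a clear margin. Mrps21 had 48.8, 43.4, 44.8, 43.5 and 48.2 against 52.6, 50.8, 51.9, 53.2 and 52.8 CPM, a log2 fold change of 0.19 ± 0.07 (FDR 0.494). Mrpl55 was the remaining gene at an unadjusted p under 0.05, at 0.18 ± 0.08 (FDR 0.525).

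**Figure D4:**
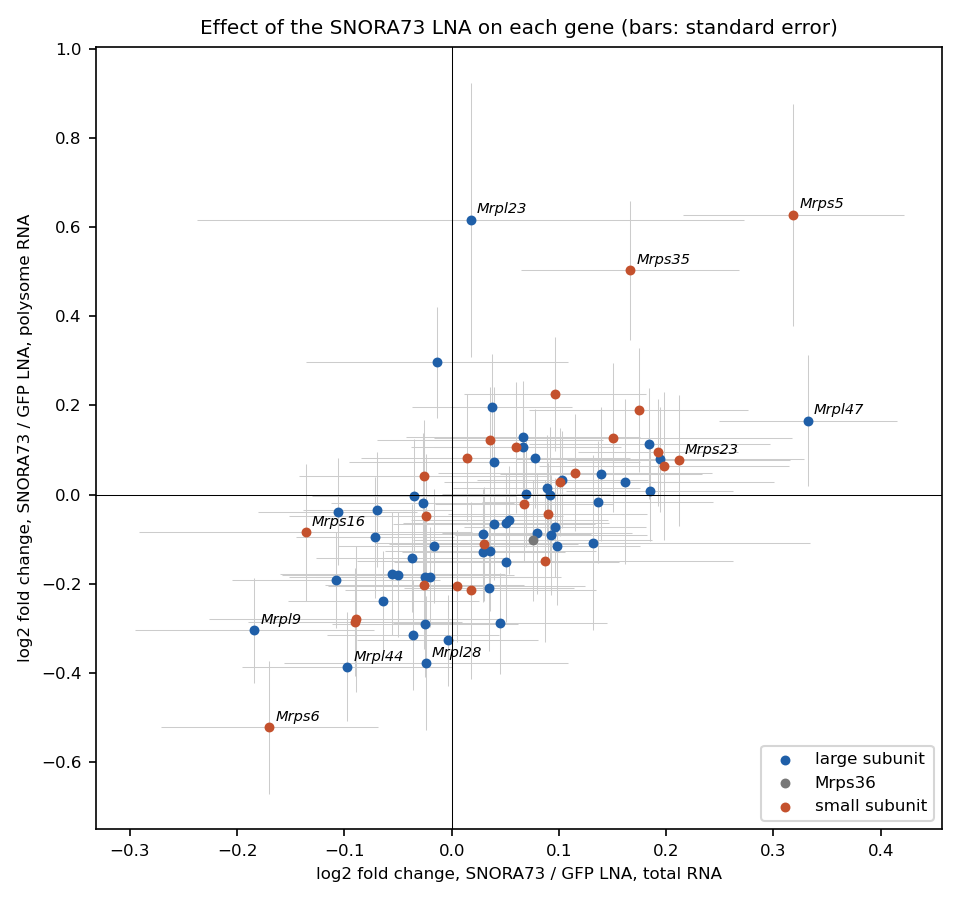
Log2 fold change with the SNORA73 LNA against the GFP LNA for each of the 78 genes, in total RNA (horizontal axis) and polysome RNA (vertical axis), with standard errors and colours for the subunits. The values run from -0.52 (Mrps6) to 0.63 (Mrps5, 0.32 without mouse 11) in polysome RNA and from -0.18 to 0.33 in total RNA, and over all genes, too, the quartiles lie further apart in polysome RNA (-0.20 and 0.21) than in total RNA (-0.12 and 0.13).

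In polysome RNA, too, no gene of the family passed between the LNA groups (edgeR, smallest FDR 0.185), where 0.0153% of 13060 genes did, and limma-voom called 0 of the 78 as well. That share stands for 2 genes, both higher. Without mice 9 and 10 it was 27 higher and 4 lower, without GFP LNA mouse 9 alone 15 and 2, and with a CPM above 1 in every library 29 and 2, again with 0 of the 78 among them, while DESeq2 called 232 and 50. The median log2 fold change was -0.05 (-0.01 over all genes), with 30 genes above 0 and 48 below. Large subunit genes were above 0 in 16 of 51 (median -0.07) and small subunit genes in 14 of 26 (median 0.03). At an unadjusted p under 0.05, 3 were higher (8.12% of all genes) and 9 lower (5.32% of all genes), and without mice 9 and 10 these were 3 (9.04% of all genes) and 6 (4.95% of all genes). The groups did not overlap for 0 genes higher (2.11% of all genes) and 4 lower (1.09% of all genes), which were Mrpl34, Mrpl36, Mrps14 and Mrps6. The family's share of polysome counts was 0.469 to 0.490% in GFP LNA and 0.367 to 0.457% in SNORA73 LNA mice. In total RNA it was 0.252 to 0.271% and 0.213 to 0.266%. TMM factors of the polysome libraries, which scale all genes of a library alike, were 1.01 to 1.10 and 0.881 to 1.03. With library totals in place of TMM, the median of the 78 genes was -0.21 and that of all genes -0.17. The number of the 78 at an unadjusted p under 0.05 then went from 12 to 23, with 0 past the FDR.

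Mrps6 (ENSMUSG00000039680, chr16:92058336-92112227), homologue of S6, had the lowest log2 fold change. It stood at 20.5, 22.2, 24.9, 26.7 and 27.4 CPM in polysome RNA of GFP LNA mice and at 12.9, 17.5, 14.4, 20.3 and 19.6 CPM in that of SNORA73 LNA mice. The groups were apart by a small margin, and the log2 fold change was -0.52 ± 0.15 (FDR 0.185), between -0.59 and -0.43 with any 1 mouse left out. Without both mice 9 and 10 it was -0.38. In total RNA the groups overlapped, at 12.4, 10.9, 12.2, 11.7 and 11.3 against 9.51, 10.9, 9.14, 9.91 and 12.5 CPM (log2 fold change -0.17 ± 0.10). Mrps6 overlaps the gene Slc5a3, so reads of the pair may be hard to assign, and the same holds for Mrpl44 with Wdfy1, Mrpl53 with Ccdc142 and Mrpl57 with Ska3.

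Mrpl34 (ENSMUSG00000034880, chr8:71464926-71465753) had 60.6, 58.6, 57.3, 54.1 and 56.1 CPM in polysome RNA of GFP LNA mice and 43.4, 45.1, 43.3, 47.2 and 49.5 CPM in that of SNORA73 LNA mice. Its groups were well apart, with a log2 fold change of -0.33 ± 0.10 (FDR 0.216). In total RNA they overlapped, at 25.3, 24.3, 25.0, 23.8 and 21 against 21.9, 24.4, 22.8, 23.5 and 26.4 CPM (-0.00 ± 0.08, FDR 0.996). Mrps14, homologue of S14, had 53.2, 53.8, 56.4, 56.4 and 57.2 against 42.9, 35.4, 51.6, 48.8 and 48.5 CPM in polysome RNA. Mrpl36, homologue of L36, had 43.2, 54.2, 48.3, 43.4 and 49.1 against 42.4, 35.1, 41.7, 42.9 and 39.7 CPM, with the groups only just apart.

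Mrpl44 (chr1:79776018-79781445), whose fold resembles that of ribonuclease III, had 31.4, 31.4, 32.1, 29.4 and 26.3 CPM in polysome RNA of GFP LNA mice and 21.9, 18.8, 27.4, 22.7 and 24.5 CPM with the SNORA73 LNA. The groups overlapped in a single mouse of each group, and the log2 fold change was -0.39 ± 0.12 (FDR 0.220). The 9 lower genes at an unadjusted p under 0.05 were Mrps6, Mrpl34, Mrpl44, Mrps14 (-0.29), Mrpl9 (-0.30), Mrpl10 (-0.32), Mrpl57 (-0.29), Mrpl28 (-0.38) and Mrpl53 (-0.29), while Mrpl36 was not among them. The 3 higher were Mrps35, Mrps5 and Mrpl50 (0.30 ± 0.12, FDR 0.325).

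Mrps35 (ENSMUSG00000040112, chr6:147042728-147070906), a mitochondria-specific small subunit protein, had 61.8, 58.4, 48.1, 58.8 and 52.5 CPM in polysome RNA of GFP LNA mice and 60.7, 93.8, 102, 70.0 and 70.0 CPM in that of SNORA73 LNA mice. Only mouse 10 lay within the range of the controls, and the log2 fold change was 0.50 ± 0.16 (FDR 0.215). Mrps5 had 98.3, 83.6, 86.0, 101 and 95.0 CPM against 111, 258, 158, 102 and 89.1 CPM. Its log2 fold change of 0.63 ± 0.25 (FDR 0.307) rested largely on mouse 11, without which it was 0.32 (FDR 0.495). The same mouse held the highest Malat1 level in polysome RNA (1403 CPM) but not the highest of Neat1 (33.2 CPM), and the part of nuclear RNA in these values was not tested. Mrpl23 was also highest in mouse 11, at 18.1 CPM against 3.87 to 10.3 CPM in the other SNORA73 LNA mice and 5.42 to 8.30 CPM in GFP LNA mice, and its log2 fold change went from 0.62 ± 0.31 to 0.33 without that mouse. Without mice 9 and 10 it was 0.92 ± 0.24 (FDR 0.137).

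**Figure D5:**
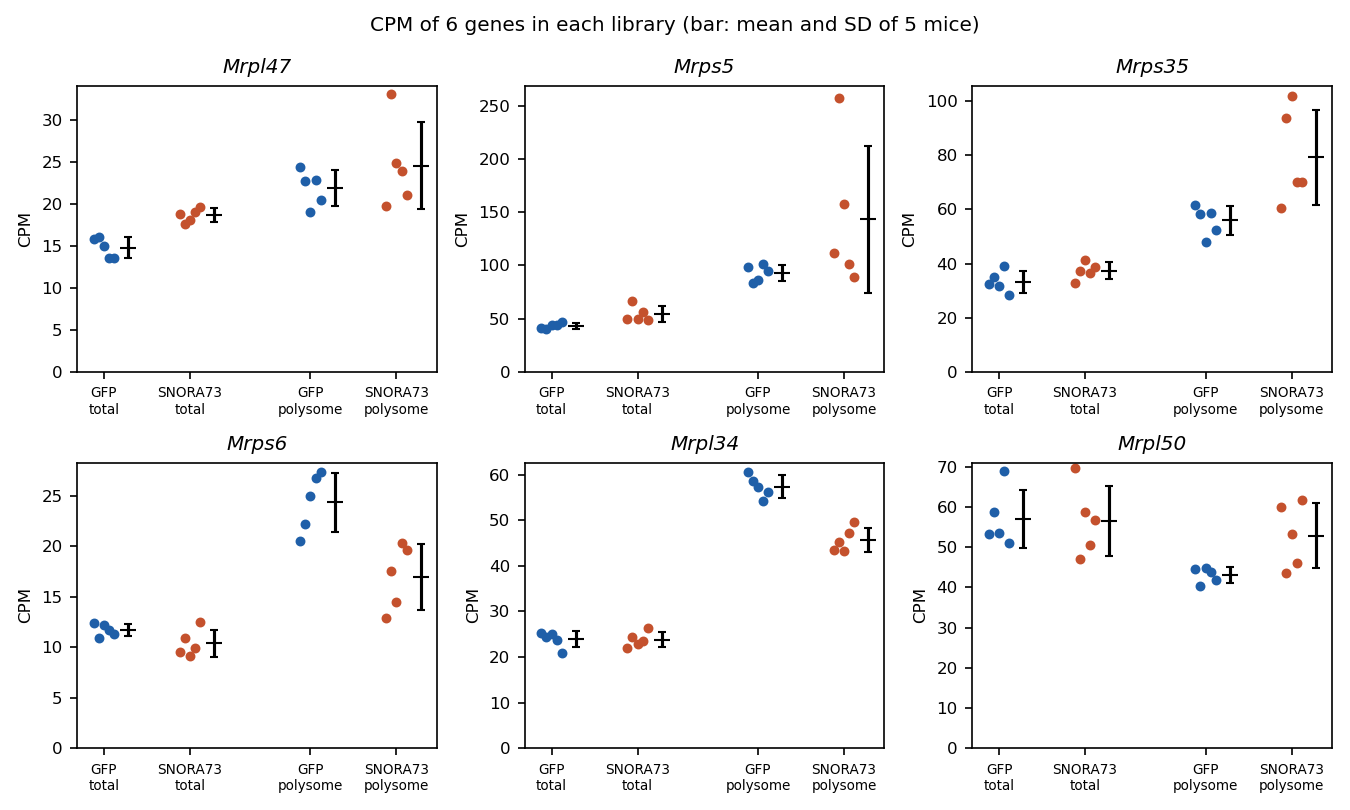
CPM of 6 genes in each library of total and polysome RNA (points, with the mean and SD of 5 mice per group), on axes that start at 0. In polysome RNA, Mrps6 and Mrpl34 of SNORA73 LNA mice lie below all GFP LNA mice, while for Mrps5 and Mrps35 the groups overlap.

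The call on 3 of these genes depended on the fit, and the cause was not tested. With all 20 libraries in 1 fit, Mrps35 passed as higher (0.50, FDR 0.0468), where 1.75% of all genes did, and Mrpl34 (-0.32, FDR 0.0452) and Mrps6 (-0.52, FDR 0.0338) as lower, where 0.544% did. DESeq2 on the 10 polysome libraries called Mrpl34 alone (-0.32, FDR 0.0457), where 0.383% of all genes were lower. Of the genes in the lists of other mitochondrial genes and cytosolic ribosomal proteins, edgeR called none between the LNA groups, with 260 tested in total RNA and 251 in that of polysomes, while an unadjusted p under 0.05 was reached by 5 higher and 15 lower genes in the first (4.96% and 3.69% of all genes) and by 14 and 11 in the second (8.12% and 5.32% of all genes).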

How the data were processed

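RNA-seq libraries were made from total and polysome liver RNA of 10 mice (100 bp paired-end reads, reversely stranded). The authors filtered reads at a Phred quality of 15 with fastp, removed rRNA reads with bowtie, estimated transcript abundance with kallisto 0.46.2 on Ensembl 102 (GRCm38) and deposited a table of estimated counts per gene made with tximport, before any normalization. They analysed these with limma 3.46.0 and voom. The strand option of kallisto is not given in the sources used here, and 25 of the 78 genes overlap another annotated gene, 20 of them a protein-coding one. Of the values, 14.3% were not whole, and counts were rounded for the tests. Symbols were matched for 51903 of 53028 identifiers, and genes without one held at most 2.99% of the counts of a library.

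A gene entered a fit if its CPM exceeded 0.5 in 4 or more libraries. Testing was by edgeR 4.0.16 (quasi-likelihood, R 4.3.3) after TMM normalization, with Benjamini-Hochberg adjustment over all genes tested. Standard errors were derived from that test, as the absolute log2 fold change over the square root of its F statistic. SNORA73 LNA and GFP LNA mice were compared within the 10 total and the 10 polysome libraries apart. Polysome was compared with total RNA, and the interaction with the LNA tested, in a fit of all 20 libraries with 4 groups. CPM are given on the scale of the fit they belong to. The library totals were 24098067 to 42023390 (total, GFP LNA), 20005389 to 29887649 (total, SNORA73 LNA), 17751846 to 33824659 (polysome, GFP LNA) and 14852951 to 24905687 (polysome, SNORA73 LNA). The script was tested on simulated counts. No pair of libraries looked like a repeat deposit, the highest correlation between libraries of the same RNA being 0.987.

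The mouse number links both libraries of a liver. After removal of group means, same-mouse libraries correlated at 0.126 to 0.579 and those of other mice of the group at -0.293 to 0.246. For SNORA73 LNA mouse 6, total RNA correlated less with its own polysome RNA (0.126) than with that of mouse 12 (0.246). The link for mouse 6 thus rests on its label.

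The genes, the lists and the tests were chosen with earlier results of these data known. The genes named are the 3 highest and 3 lowest log2 fold changes in each comparison, up to 10 with the smallest FDR, and genes chosen for their role. A further part of the rule, by level per length, could not be run without transcript lengths, and other genes named were chosen after their values were seen. In the list of genes with bacterial homologues, Mrpl47 and Mrpl55 were added as homologues of L29 and L31 after the list was first written. Promoter sequences came from RefSeq on GRCm38.p6, with starts of the transcripts given there. The alternatives were limma-voom (limma 3.58.1), DESeq2 1.42.0 and its size factors, library totals, other filters, a fold threshold, the 20-library fit, the mouse as replicate block and each mouse left out. The study left out 1 mouse per group without naming it here, so a further alternative left out GFP LNA mouse 9 and SNORA73 LNA mouse 10, whose total RNA had the lowest median correlation with the other total RNA libraries among the mice of their LNA (0.972 and 0.965). In polysome RNA other mice were lowest, GFP LNA mouse 2 (0.955) and SNORA73 LNA mouse 11 (0.950), with mice 9 and 10 at 0.965 and 0.957. Mice 2 and 11 were left out only 1 at a time. Chosen after seeing the data were 3 alternatives: limma-voom on the 8 mice without mice 9 and 10, the replicate block on them, and the libraries without mitochondrially encoded genes.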

Additional observations from a re-analysis of the deposited data

Results flagged for a closer look

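In each group of 5 mice, the highest or lowest value was compared with its nearest neighbour and the whole range of the group (Dixon's criterion, 0.71 for 5 samples). Among 164 groups tested, 9 held such a value, and chance alone gives about 1 in 20 groups. Mrpl12 stood apart in both RNAs, at 106 CPM in total RNA of GFP LNA mouse 8 (the other mice 118 to 120) and at 293 CPM in polysome RNA of GFP LNA mouse 9 (252 to 259). In polysome RNA of the same mouse 9, Mrpl13 was at 112 CPM (96.9 to 101) and Mrps18a at 49.8 CPM (38.8 to 41.5). Mrpl2 was at 29.6 CPM in its total RNA (33.2 to 33.8). In polysome RNA, Mrpl11 was at 55.8 CPM in GFP LNA mouse 1 (64.2 to 66.0) and Mrpl57 at 37.4 CPM in GFP LNA mouse 2 (45.0 to 46.7). In SNORA73 LNA mice, Mrpl23 was at 5.54 CPM in total RNA of mouse 10 (2.37 to 2.88) and Mrpl51 at 208 CPM in polysome RNA of mouse 11 (162 to 175).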

How the results depend on the processing

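Over the alternatives run, no result on the 78 genes changed direction past the test. The number higher on polysomes ran from 59 to 69 in GFP LNA mice and from 55 to 66 in SNORA73 LNA mice, and leaving out each mouse in turn gave 66 to 69 and 60 to 63, with medians of 0.79 to 0.85 and 0.67 to 0.75. With the mouse as replicate block, 69 and 66 were higher, and beside the rise from 2 to 8 genes at an unadjusted p under 0.05 for the change on polysomes, the block took no gene past the FDR there. It moved Mrpl19 (0.25), Mrpl44 (0.24) and Mrps23 (0.25) past it on polysomes of SNORA73 LNA mice and Mrps10 (0.26) on those of GFP LNA mice. When a log2 size of 0.5 or more was asked for besides the FDR, 0 genes were lower on polysomes in GFP LNA mice, since Mrpl50 is at -0.44. Scaled by library totals, the median of the 78 genes between the LNA groups was -0.10 in total and -0.21 in polysome RNA (all genes -0.14 and -0.17). In polysome RNA, the fit of 20 libraries called 1 gene higher and 2 lower and DESeq2 called 1 lower, against 0 in the 10-library fit, and the cause was not tested. With a mouse left out, the medians ran from 0.02 to 0.07 (total), -0.08 to -0.02 (polysome) and -0.15 to -0.07 (change on polysomes). Precision per gene limits small changes: the median standard error was 0.10 in total RNA, 0.13 in polysome RNA and 0.16 for the change.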
